A study of Rattus norvegicus with 9 samples.

Results

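The genes described are 10 that govern how a cell takes up glucose and fructose and commits them to glycolysis. They were taken by symbol from the count tables. They comprise the sugar transporters Slc2a1, Slc2a3, Slc2a4 and Slc2a5, the fructose kinase Khk, the hexokinases Hk1 and Hk2, the glycolytic regulator Pfkfb3, the glucose-responsive arrestin Txnip and the pyruvate dehydrogenase kinase Pdk4. All 10 of 10 symbols were found, each on a single line, among 30452 features per library. Messenger RNA was sequenced from arteries of rat offspring aged 3 to 5 months, in 9 libraries. The 3 groups were mesenteric artery of offspring whose dams drank 20% sucrose water in pregnancy (replicates 1, 2 and 3), pulmonary artery from offspring of control dams (replicates 1, 2 and 4) and mesenteric artery from offspring of control dams (replicates 1, 2 and 3). Control dams drank ordinary water, and all dams ate a standard diet. Exposure to sucrose was thus maternal, and the labels give no strain or sex. They do not tell either if replicates were different rats, so that p-values reflect variation among these libraries, part of which may be technical.

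Glucose enters cells through facilitative transporters and is trapped by hexokinases, which add a phosphate group. Phosphofructokinase then commits the sugar to glycolysis, and the bifunctional enzyme encoded by Pfkfb3 makes the sugar bisphosphate that activates it. Fructose can enter through Slc2a5 and be phosphorylated by ketohexokinase, encoded by Khk, which passes by the phosphofructokinase step. Txnip is induced by glucose and restrains glucose uptake, and Pdk4 blocks the entry of pyruvate into the mitochondrial citric acid cycle. In the artery wall, endothelium is known for a high rate of glycolysis, whereas smooth muscle and perivascular fat carry the insulin-responsive transporter encoded by Slc2a4.

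The clearest difference lay between the arteries and concerned the glucose transporters. Slc2a3 was lower in all 3 pulmonary control libraries than in every mesenteric library (log2 fold change −2.12 ± 0.40 SE against mesenteric control), and Slc2a1 was higher in all 3 than in every mesenteric control library (1.28 ± 0.38). Of all genes tested, 7.59% were lower and 6.41% higher without overlap between these groups. Neither gene passed the test across all genes by edgeR at an adjusted p under 0.05, which 0.0140% of genes did. The adjusted p by edgeR was 0.238 for Slc2a3 and 0.464 for Slc2a1. Slc2a3 passed under 4 of 15 alternative settings and not under the rest. Those 4 called from 0.153% to 2.85% of all genes, and among them is a fit without pulmonary replicate 4. Between sucrose and control mesenteric arteries none of the tested genes of the set passed by edgeR, nor did any other gene (0%). All 8 tested genes of the set overlapped between these groups, where only 5.99% of all genes tested did not overlap. The fructose genes Slc2a5 and Khk were at the edge of detection in all 9 libraries, with 1 to 18 counts each.

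Total counts per library ran from 10388231 to 15420546, so that 1 count stood for 0.0645 to 0.0955 CPM (counts per 1000000 of library size, scaled by TMM over all 9 libraries). Every library held the artery genes Acta2, of smooth muscle, and Pecam1, of endothelium, with Acta2 between 748 and 8244 CPM and Pecam1 between 203 and 1064 CPM. The pulmonary control libraries were not alike in the transcripts of other cell types. Pulmonary replicate 2 led all 9 libraries in 10 of 10 cardiac muscle markers, with a summed level of 16247 CPM, against 1651 CPM in pulmonary replicate 4, 64.4 CPM in pulmonary replicate 1 and 34.4 to 112 CPM in the 6 mesenteric libraries. Pulmonary replicate 4 was the highest for 10 of 10 lymphocyte markers (2108 CPM, against 15.3 to 45.1 CPM in the other 8 libraries) and for 7 of 7 lung epithelium markers found (719 CPM, against 71.7 CPM in pulmonary replicate 2 and 5.32 to 10.7 CPM elsewhere). It also had the lowest sums of smooth muscle (3399 CPM), blood endothelium (742 CPM) and white adipocyte markers (280 CPM). In bulk tissue, fewer cells of a type and less RNA per cell cannot be told apart, and the part of these markers in the results that follow was not tested except where a library was left out.

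**Figure D1:**
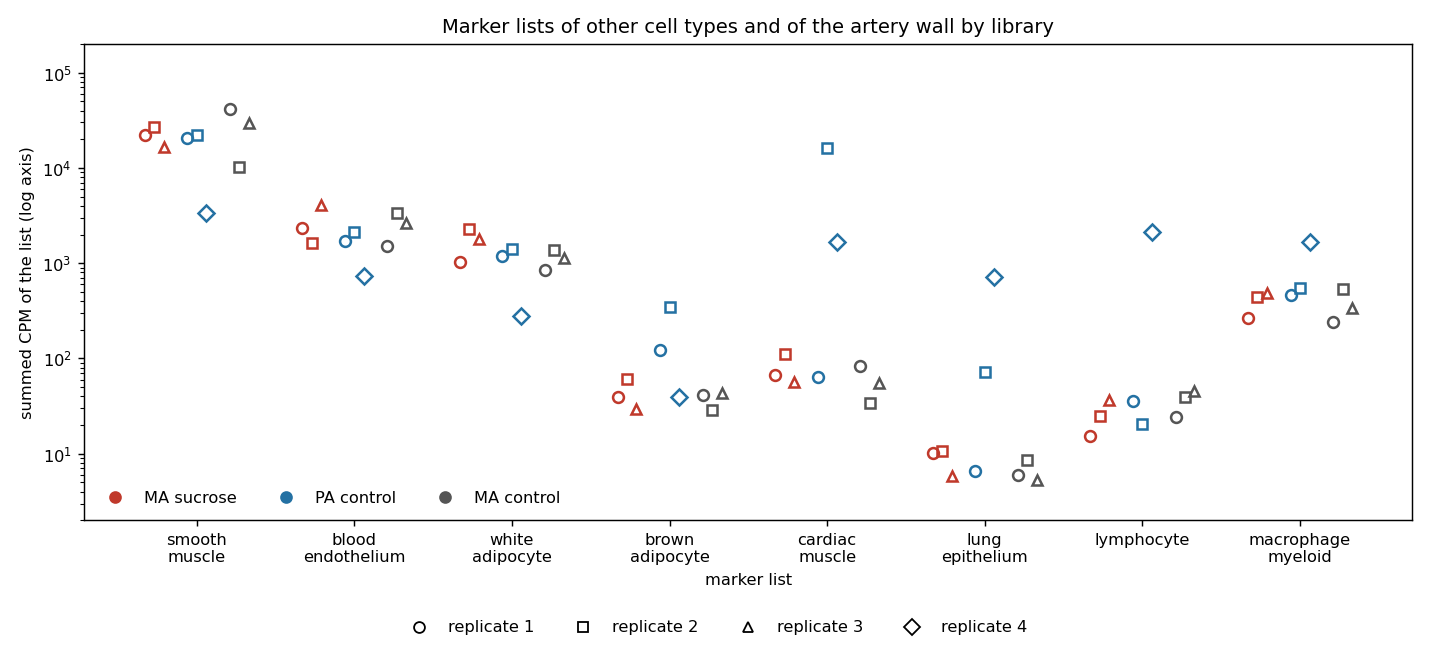
Summed CPM (log axis) of the marker lists of each cell type in the 9 libraries, coloured by group (MA, mesenteric artery; PA, pulmonary artery), with 1 symbol per replicate number. Pulmonary replicate 2 stands out for cardiac muscle at 16247 CPM, and pulmonary replicate 4 for lymphocytes at 2108 CPM and lung epithelium at 719 CPM.

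Slc2a3 encodes GLUT3, a high-affinity glucose transporter known best from neurons. It was at 93.6, 94.0 and 98.2 CPM in mesenteric sucrose replicates 1, 2 and 3. The pulmonary control replicates 1, 2 and 4 had 13.3, 16.2 and 32.1 CPM, and the mesenteric control replicates 74.4, 100.1 and 95.4 CPM. The 3 pulmonary libraries thus lay below all 6 mesenteric ones, while the sucrose values fell within the range of the mesenteric controls. The pulmonary mean was 20.5 ± 10.1 CPM, against 90.0 ± 13.6 CPM in mesenteric control (SD, n = 3 each), a log2 fold change of −2.12 ± 0.40 (SE), or 4.35-fold lower. By edgeR, Slc2a3 ranked 81 of 14315 genes by p-value in this comparison, with an adjusted p of 0.238.

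Slc2a3 was lowest in pulmonary replicate 1. In that library the cardiac muscle, lung epithelium and lymphocyte sums were within the mesenteric range, as were those of blood endothelium (1699 CPM) and adventitial fibroblasts (7330 CPM). Mesothelium markers (84.1 CPM, against 1.82 to 6.71 CPM in mesenteric libraries) and brown adipocyte markers (122 CPM, against 28.7 to 61.1 CPM) were above it. Nerve and glia markers (211 CPM, against 229 to 726 CPM) were below it. With that library as the only pulmonary one, the log2 fold change was −2.78 (adjusted p = 0.206), the lone library being assumed to vary like the mesenteric ones. Without pulmonary replicate 4, the highest of the pulmonary libraries, it was −2.61 ± 0.25 and passed by edgeR (adjusted p = 0.0250, with 22 of 14412 genes called, 0.153%). Slc2a3 also passed by DESeq2 (−2.12, adjusted p = 0.000326, 2.85% of genes called), by limma-voom with quality weights (−2.52, adjusted p = 0.0338, 0.231% called) and with the replicate number as a block (−2.58, adjusted p = 0.0485, 0.251% called), a fit in which pulmonary replicate 4 and mesenteric control replicate 3 have no partner and do not bear on the fold change. Over all 15 alternatives its fold change ran from −2.78 to −1.89 and its adjusted p from 0.000326 to 0.757. Between sucrose and control mesenteric artery the log2 fold change was 0.09 ± 0.18, and it was −0.04 without mesenteric control replicate 1.

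Slc2a1 encodes GLUT1, the transporter of basal glucose uptake in most cells. It was at 14.7, 12.0 and 8.40 CPM in mesenteric sucrose replicates 1, 2 and 3. It was at 14.7, 20.9 and 31.6 CPM in pulmonary control replicates 1, 2 and 4, and at 9.09, 7.23 and 11.6 CPM in the mesenteric control replicates. All 3 pulmonary libraries lay above the mesenteric controls, and the lowest of them was at the level of the highest sucrose library. The log2 fold change of pulmonary over mesenteric control was 1.28 ± 0.38 (SE, adjusted p = 0.464 by edgeR), from means of 22.4 ± 8.58 and 9.30 ± 2.19 CPM (SD, n = 3 each). The pulmonary value was highest in replicate 4. Without that library the log2 fold change was 0.94, and with pulmonary replicate 1 alone it was 0.64. It stayed above 0 under all 15 alternatives, none of which took it past the threshold (adjusted p from 0.0798 to 0.980). Sucrose and control mesenteric arteries overlapped, with means of 11.7 ± 3.13 and 9.30 ± 2.19 CPM and a log2 fold change of 0.34 ± 0.29, or 0.16 without sucrose replicate 1, 0.20 without mesenteric control replicate 2, 0.51 without sucrose replicate 3 and 0.52 without mesenteric control replicate 3.

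Set against each other within a library, which removes the scaling between libraries, Slc2a3 and Slc2a1 separated the arteries further. The ratio of Slc2a3 to Slc2a1 counts was 6.39, 7.86 and 11.7 in mesenteric sucrose replicates 1, 2 and 3. In pulmonary control replicates 1, 2 and 4 it was 0.904, 0.774 and 1.01, against 8.19, 13.8 and 8.23 in the mesenteric controls. All 3 pulmonary ratios lay below every mesenteric one, and the sucrose and control mesenteric ratios overlapped. The ratio was chosen after the values were seen and was not tested, and it is not corrected for transcript length, so that it orders libraries and not the amounts of both transporters.

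**Figure D2:**
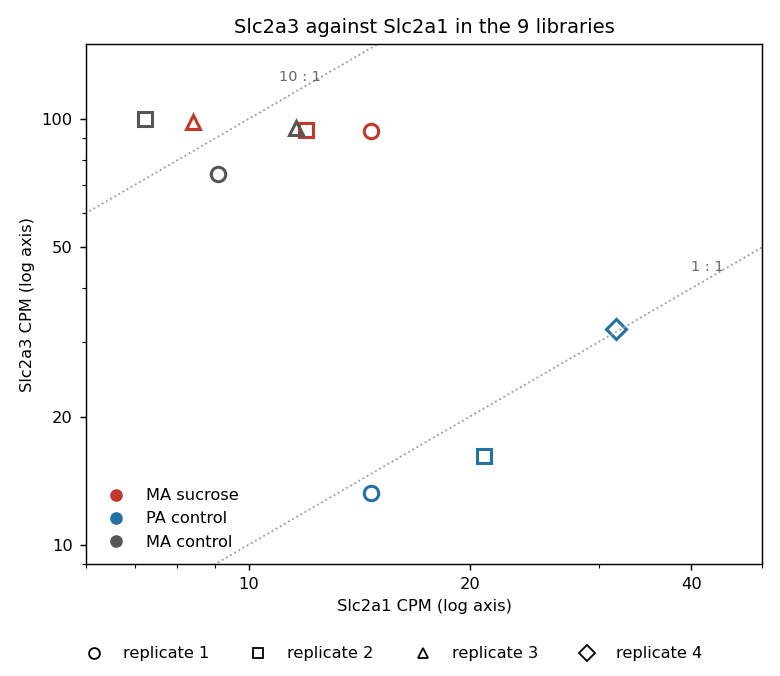
Slc2a3 against Slc2a1 CPM in each of the 9 libraries (both axes log, dotted lines mark ratios of 1 and 10), coloured by group, with 1 symbol per replicate number. The 3 pulmonary control libraries lie along the lower line, with count ratios of 0.774 to 1.01, and the 6 mesenteric libraries around the upper line, with ratios of 6.39 to 13.8.

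Promoter sequences were at hand for 7 of the 10 genes, in RefSeq's table for the build GRCr8, as windows of 250 bases before to 50 after the gene start. Slc2a3, Slc2a4 and Txnip had no entry. The promoter of Slc2a1 is shown because its transcript was among those of transporters that were higher in every pulmonary library than in the mesenteric controls, and that of Pfkfb3 because it alone among the windows found held CACGTG. Both genes are known in mammals as targets of hypoxia-inducible factor, whose core sites include ACGTG. Other forms of that core were not searched for and are not marked. The windows are on the plus strand, Slc2a1 at chr5:138002272-138002571 and Pfkfb3 at chr17:71944683-71944982, and capitals mark the match to ACGTG on either strand or to the E-box CACGTG, which contains it.
Slc2a1: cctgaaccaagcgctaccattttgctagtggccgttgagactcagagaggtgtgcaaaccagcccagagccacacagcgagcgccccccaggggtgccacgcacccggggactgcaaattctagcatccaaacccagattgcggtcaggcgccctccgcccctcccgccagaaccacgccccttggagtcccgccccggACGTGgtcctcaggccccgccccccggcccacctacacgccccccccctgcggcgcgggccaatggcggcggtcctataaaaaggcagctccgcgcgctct
Pfkfb3: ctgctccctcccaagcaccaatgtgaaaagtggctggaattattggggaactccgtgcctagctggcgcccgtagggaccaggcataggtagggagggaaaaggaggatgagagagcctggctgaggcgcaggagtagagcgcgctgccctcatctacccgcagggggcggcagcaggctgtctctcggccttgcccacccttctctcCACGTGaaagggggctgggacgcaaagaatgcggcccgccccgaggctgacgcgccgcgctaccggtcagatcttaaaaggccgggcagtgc
Of the 8 promoter windows of these genes, Hk1 having 2, ACGTG on either strand was in 3 and CACGTG in 1, whereas 19.3% and 6.42% of all 33469 windows held them. A match of letters is a description and says nothing of binding in these arteries.

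Slc2a4 encodes GLUT4, the transporter that insulin moves to the surface of muscle and fat cells. It was at 59.8, 117 and 34.8 CPM in mesenteric sucrose replicates 1, 2 and 3. The pulmonary control replicates 1, 2 and 4 had 79.8, 182 and 18.0 CPM, and the mesenteric control replicates 81.2, 24.5 and 60.6 CPM. The groups overlapped fully, and the spread was widest in pulmonary artery, where the highest library had 10.1 times the level of the lowest. Pulmonary replicate 2, the highest, was the library rich in cardiac muscle markers, and it also had the highest brown adipocyte sum (346 CPM). Sucrose replicate 2, at 117 CPM, had the highest white adipocyte sum (2263 CPM), but mesenteric control replicate 2, low in Slc2a4, had 1381 CPM. Pulmonary replicate 4 and mesenteric control replicate 2, the lowest, had the smallest sums of smooth muscle markers (3399 and 10226 CPM, against 16770 to 41816 CPM in the other 7). The log2 fold change was 0.74 ± 0.80 (SE) for pulmonary over mesenteric control, −0.19 without pulmonary replicate 2, 1.24 without pulmonary replicate 4, 1.10 and 0.39 without mesenteric control replicates 1 and 2, and 1.41 with the replicate block. Between sucrose and control mesenteric artery it was 0.37 ± 0.54, and −0.21 without sucrose replicate 2.

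Slc2a5 and Khk are the entry genes of fructose metabolism, known for high levels in gut, liver and kidney. Both stood below the filter on low counts in both comparisons and were not tested. Slc2a5, the fructose transporter, had 2, 3 and 2 counts in mesenteric sucrose replicates 1, 2 and 3. It had 6, 13 and 18 counts in pulmonary control replicates 1, 2 and 4, and 3, 5 and 3 in the mesenteric controls. The pulmonary levels, 0.497 to 1.16 CPM, lay above those of the mesenteric controls, 0.202 to 0.430 CPM, as did 6.41% of all genes tested. The ratio of summed counts per library size was 3.01 (95% exact conditional interval 1.50 to 6.55, counting error only). This interval holds no variation between libraries, so it cannot settle whether Slc2a5 differed between the arteries. Sucrose and control mesenteric arteries overlapped, with a ratio of 0.696 (0.229 to 1.97).

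Khk had 4, 5 and 3 counts in mesenteric sucrose replicates 1, 2 and 3. Pulmonary control replicates 1, 2 and 4 held 3, 3 and 6 counts, and the mesenteric controls 1, 2 and 1. Every sucrose and pulmonary library was thus above the mesenteric controls, by a few reads. Of all genes tested, 2.66% lay above the controls in this way in the sucrose group and 6.41% in pulmonary artery. The ratio to mesenteric control was 3.28 (0.995 to 14.0) for the sucrose group and 2.69 (0.814 to 11.4) for pulmonary artery, and both intervals for counting error reach below 1. The reads carry no molecular identifiers, so these intervals cover counting error only, and whether Khk differed was not resolved at this depth.

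Hk1, the hexokinase of most tissues, was at 96.8, 55.5 and 83.8 CPM in mesenteric sucrose replicates 1, 2 and 3. It was at 61.5, 134 and 68.1 CPM in pulmonary control replicates 1, 2 and 4 and at 72.8, 55.5 and 74.2 CPM in the mesenteric controls. The groups overlapped, and the highest library was the pulmonary one rich in cardiac muscle markers. Its log2 fold change was 0.38 ± 0.34 (SE) for pulmonary over mesenteric control and turned to −0.06 without pulmonary replicate 2 and to −0.15 with pulmonary replicate 1 alone. For sucrose over control it was 0.23 ± 0.24, and 0.07 without sucrose replicate 1 and 0.44 without sucrose replicate 2.

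Hk2, the inducible hexokinase of muscle and fat, gave the largest log2 fold change of the 8 tested genes between sucrose and control, 0.88 ± 0.47 (SE, unadjusted p = 0.0999, adjusted p = 1.00 by edgeR). It was at 34.6, 27.6 and 9.17 CPM in mesenteric sucrose replicates 1, 2 and 3, against 9.69, 13.0 and 16.2 CPM in the mesenteric controls. Sucrose replicates 1 and 2 lay above every control and replicate 3 below all of them, so that the groups overlapped and sucrose replicate 3 was the lowest of the 9 libraries. The log2 fold change was 1.26 without sucrose replicate 3 and 0.53 without sucrose replicate 1. Relative to Hk1 in the same library, Hk2 counts were 0.358, 0.497 and 0.109 in sucrose replicates 1, 2 and 3, against 0.133, 0.234 and 0.218 in the mesenteric controls, a ratio chosen after the values were seen. In pulmonary control replicates 1, 2 and 4, Hk2 was at 10.9, 25.0 and 15.4 CPM. Its log2 fold change over mesenteric control was 0.40 ± 0.39 (SE), 0.03 without pulmonary replicate 2 and −0.26 with pulmonary replicate 1 alone.

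Pfkfb3 was at 34.2, 115 and 45.8 CPM in mesenteric sucrose replicates 1, 2 and 3. The pulmonary control replicates 1, 2 and 4 had 61.5, 112 and 37.4 CPM, and the mesenteric controls 25.0, 73.7 and 44.7 CPM. Replicate 2 was the highest library within each of the 3 groups, and the groups overlapped. The log2 fold change was 0.45 ± 0.55 (SE) for sucrose over control, −0.25 without sucrose replicate 2 and 0.93 without mesenteric control replicate 2. For pulmonary over mesenteric control it was 0.54 ± 0.53, 0.04 without pulmonary replicate 2 and 1.01 without mesenteric control replicate 2. Its promoter, shown with that of Slc2a1, holds the only CACGTG found in the windows of the 7 genes with an entry. Other forms of the E-box were not searched for.

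Txnip was at 1164, 1901 and 1969 CPM in mesenteric sucrose replicates 1, 2 and 3. It was at 1480, 1750 and 346 CPM in pulmonary control replicates 1, 2 and 4, and at 1475, 1732 and 1056 CPM in the mesenteric controls. Pulmonary replicate 4 was the lowest of all libraries, and sucrose and control mesenteric arteries overlapped (log2 fold change 0.25 ± 0.32 SE, 0.07 without mesenteric control replicate 3 and 0.47 without sucrose replicate 1). The log2 fold change of pulmonary over mesenteric control was −0.27 ± 0.62, and it was 0.18 without pulmonary replicate 4, 0.04 with pulmonary replicate 1 alone and 0.14 by limma-voom with quality weights, which gives less weight to deviating libraries.

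Pdk4, the pyruvate dehydrogenase kinase known to be raised by fasting and by fatty acids, varied most among the 8 tested genes, with 21.5 times between its highest and lowest library. It was at 103, 278 and 408 CPM in mesenteric sucrose replicates 1, 2 and 3. The pulmonary control replicates 1, 2 and 4 had 205, 294 and 19.0 CPM, and the mesenteric controls 339, 260 and 244 CPM. The mesenteric controls lay within 1.39 times of each other, whereas the sucrose libraries spread 3.95 times, on both sides of the controls. Pulmonary replicate 4 was the lowest for Pdk4, Txnip and Slc2a4 alike, and it also had the lowest sums of white adipocyte, smooth muscle, endothelium and adventitial fibroblast markers (1061 CPM for the last, against at least 5795 CPM elsewhere). Its share of mitochondrially encoded counts was the highest, 27.1% against 12.8% to 20.1%, and it had the fat hormone Adipoq at 6.58 CPM against 203 and 152 CPM in pulmonary replicates 1 and 2. The log2 fold change of Pdk4 was −0.08 ± 0.47 (SE) for sucrose over control, 0.31 without sucrose replicate 1 and −0.56 without sucrose replicate 3. For pulmonary over mesenteric control it was −0.72 ± 0.83, −0.17 without pulmonary replicate 4 and −1.35 without pulmonary replicate 2.

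**Figure D3:**
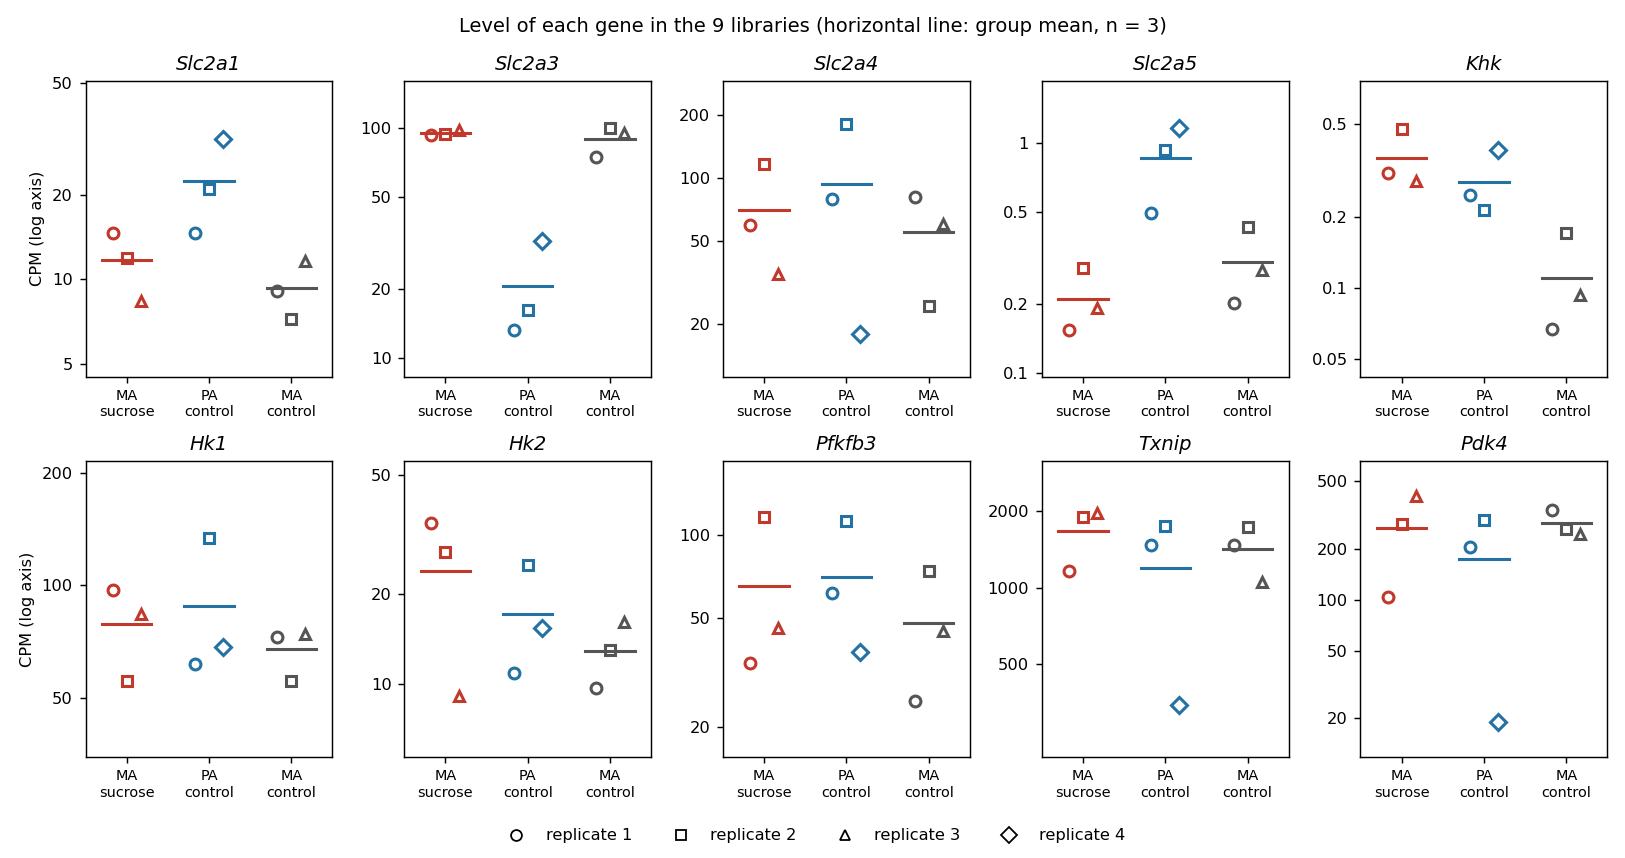
CPM (log axis, a scale of its own in each panel) of the 10 genes in mesenteric sucrose, pulmonary control and mesenteric control libraries, with 1 symbol per replicate number and a line at each group's mean (n = 3). Slc2a3 in pulmonary artery, at 13.3 to 32.1 CPM, lies below all mesenteric libraries, and pulmonary replicate 4 is the lowest library for Slc2a4, Txnip and Pdk4.

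Among the 10 genes, 8 passed the filter on low counts in each comparison. Between sucrose and control mesenteric artery, 0 of these 8 passed by edgeR, where 0 of 13995 genes tested passed (0%), and 0 had an unadjusted p under 0.05 (1.99% of all genes). The groups overlapped for all 8, whereas 5.99% of all genes did not overlap, 2.66% higher and 3.33% lower. Of the 8 log2 fold changes 7 were above 0, Pdk4 being the exception, with a median of 0.29 and a range from −0.08 to 0.88. Leaving out 1 library could turn Slc2a3, Slc2a4 and Pfkfb3 below 0 and Pdk4 above 0, while Slc2a1, Hk1, Hk2 and Txnip stayed above 0. Over all genes the median was 0.0024 and 50.3% were above 0. In the same comparison 9 of 10 white adipocyte markers were above 0 (median 0.68), with summed levels of 1021 to 2263 CPM in sucrose and 853 to 1381 CPM in control libraries. Of 8 adventitial fibroblast markers 8 were below 0 (median −0.49), with sums of 5919 to 7505 CPM in sucrose and 6556 to 14208 CPM in control libraries. The part of either list in the values of the set was not tested. DESeq2 called 3 genes over the whole table (0.0214%) and none of the set, and limma-voom called 0.

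Between pulmonary and mesenteric control, 0 of the 8 passed by edgeR, where 2 of 14315 genes did (0.0140%), and 2, Slc2a1 and Slc2a3, had an unadjusted p under 0.05 (8.53% of all genes). Slc2a1 (higher) and Slc2a3 (lower) were also the 2 whose groups did not overlap, against 14.0% of all genes, 6.41% higher and 7.59% lower. The 8 log2 fold changes ran from −2.12 to 1.28 with a median of 0.39, beside a median of 0.058 over all genes, and 5 were above 0, beside 54.5% of all genes. In this comparison 8 of 9 blood endothelium markers were below 0 and 1 above (median −0.66), with 4 lower without overlap. Of 8 adventitial fibroblast markers 8 were below 0 (median −0.78), with 3 lower without overlap. All 6 tested cardiac muscle markers and all 8 tested lymphocyte markers were above 0. The part of these lists in the values of the set was not tested. Both comparisons use the same 3 mesenteric control libraries, so their fold changes are not independent.

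**Figure D4:**
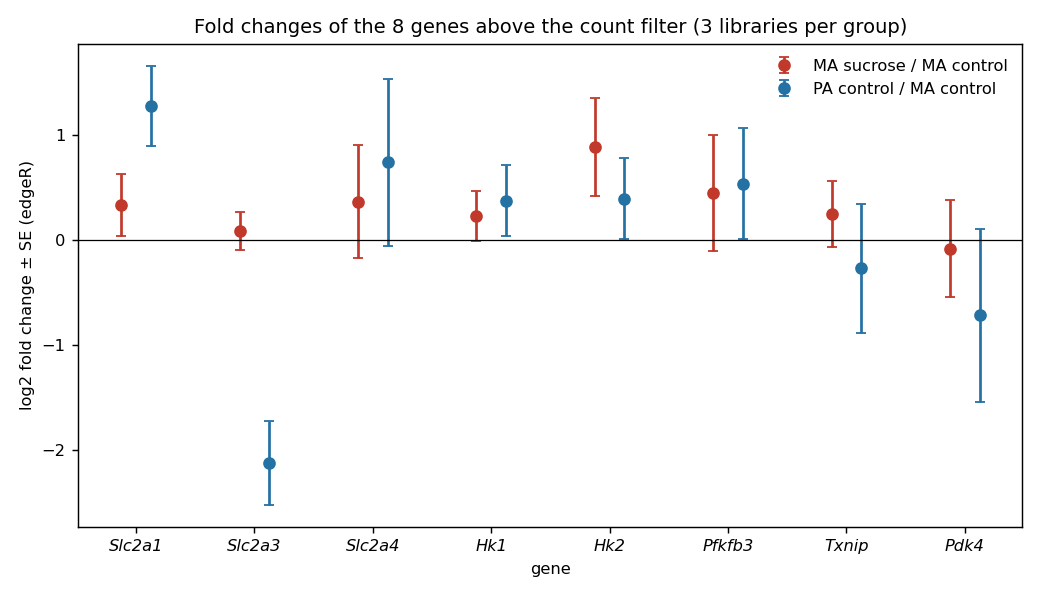
Log2 fold change ± SE by edgeR of the 8 tested genes, for mesenteric sucrose over mesenteric control (red) and pulmonary control over mesenteric control (blue), 3 libraries per group. The lowest value is that of Slc2a3 in pulmonary artery (−2.12 ± 0.40) and the highest that of Slc2a1 (1.28 ± 0.38), while all sucrose values lie between −0.08 and 0.88.

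The wider pathway was read from 8 lists with 90 genes, of which 83 had a line in the tables and 72 were tested in each comparison. Of the 64 tested genes other than the set itself, 0 passed by edgeR in either comparison, and 0 (sucrose) and 7 (pulmonary) had an unadjusted p under 0.05, beside 1.99% and 8.53% of all genes in those comparisons. Between sucrose and control mesenteric artery, 26 of the 64 were above 0 and 38 below, with a median of −0.05 and values from −0.63 to 0.57. The lowest p among them was that of Pygl, the glycogen phosphorylase of liver, at 5.78, 8.26 and 9.84 CPM in sucrose replicates 1, 2 and 3, against 10.8, 12.4 and 14.1 CPM in the mesenteric controls (log2 fold change −0.63 ± 0.28 SE, unadjusted p = 0.0567). Pygl and Gbe1, the glycogen branching enzyme (−0.21), were the 2 pathway genes that did not overlap, beside 5.99% of all genes.

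The other transporters and glycolytic genes with the lowest p in the sucrose comparison had log2 fold changes between −0.54 and 0.57. Slc2a10 had a log2 fold change of −0.54 ± 0.46 (SE) and Slc2a13, which carries myo-inositol, 0.27 ± 0.26. Akr1b1, the aldose reductase that opens the polyol route from glucose to fructose, was at −0.29 ± 0.18, and Sord, which completes it, at 0.12. The glycolytic enzymes Gpi and Pfkm were at −0.29 and −0.39, Aldoa, listed at only 8 to 28 counts per library over all 9, at 0.57 ± 0.52, and Bpgm, which makes bisphosphoglycerate, at −0.33. None of these genes passed, and all of them overlapped between the groups. Rpia and Pgls of the pentose phosphate route were at −0.36 and −0.21, Mpc1 of the mitochondrial pyruvate carrier and Dld of the pyruvate dehydrogenase complex at −0.18 and 0.11, and Arrdc3, an arrestin related to Txnip, and Mlx, a partner of glucose-sensing transcription factors, at −0.21 and 0.09.

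In pulmonary against mesenteric control, 42 of the 64 other pathway genes were above 0 and 22 below, with a median of 0.32, beside 54.5% above 0 and a median of 0.058 over all genes. Without overlap, 7 of the 64 were higher and 3 lower, beside 14.0% of all genes in either direction. Pulmonary replicate 2 was the library rich in cardiac muscle markers. It led all 9 libraries in 9 of 13 pyruvate dehydrogenase genes, 8 of 17 lower glycolysis genes and 6 of 9 glycogen genes. Elsewhere it led in 4 of 15 hexose phosphorylation genes, 2 of 14 transporters and 2 of 6 fructose and polyol genes. For pentose phosphate (0 of 6) and glucose sensing (0 of 3) it led in none, while pulmonary replicate 4 led in 5 of 6 pentose phosphate genes. The share of all genes led by each library was not determined, so these counts have no background to be read against. They include the set itself, and the part of pulmonary replicate 2 was not tested. Among the other transporters, Slc2a9, a urate and sugar transporter, was at 34.0, 25.8 and 18.5 CPM in pulmonary control replicates 1, 2 and 4, against 12.6, 15.6 and 15.7 CPM in the mesenteric controls (log2 fold change 0.83 ± 0.30 SE, adjusted p = 0.537 by edgeR), without overlap. Slc2a6 was at 1.10 ± 0.66, its pulmonary libraries having 42.0 CPM in replicate 4, while replicates 1 and 2 had 8.70 and 11.6 CPM. Pfkl, the liver-type phosphofructokinase, was at 0.97 ± 0.37, and Pfkm, the muscle type, at 1.03 ± 0.74.

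At the pyruvate dehydrogenase step, Pdp2, a phosphatase that switches the complex on, was at 19.5, 17.6 and 11.9 CPM in pulmonary control replicates 1, 2 and 4, against 6.66, 9.04 and 6.45 CPM in the mesenteric controls. This gave a log2 fold change of 1.14 ± 0.33 (SE, adjusted p = 0.454 by edgeR). Pdp2 passed by DESeq2, as did 2.85% of all genes. Pdk3, a kinase that switches it off, was at 0.91 ± 0.39, also without overlap. Pgam2, the phosphoglycerate mutase of muscle, had a log2 fold change of 3.51 ± 1.26 and passed by DESeq2, but its 274 CPM in pulmonary replicate 2 and 56.2 CPM in replicate 4 stood against 6.13 CPM in replicate 1, within the range of the mesenteric controls (9.02, 4.30 and 16.0 CPM). Those are the libraries in which the cardiac markers were high. Pygl was at 0.84 ± 0.30, Pgm1 of glycogen metabolism at 1.12 ± 0.61, Tkfc and Glyctk of fructose breakdown at 0.84 and 0.62, Pgd and Tkt of the pentose phosphate route at 0.37 and 0.45 and Mlx at 0.30, whereas Arrdc3 was at −1.27 ± 0.58 and Bpgm at −0.56 ± 0.21.

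**Figure D5:**
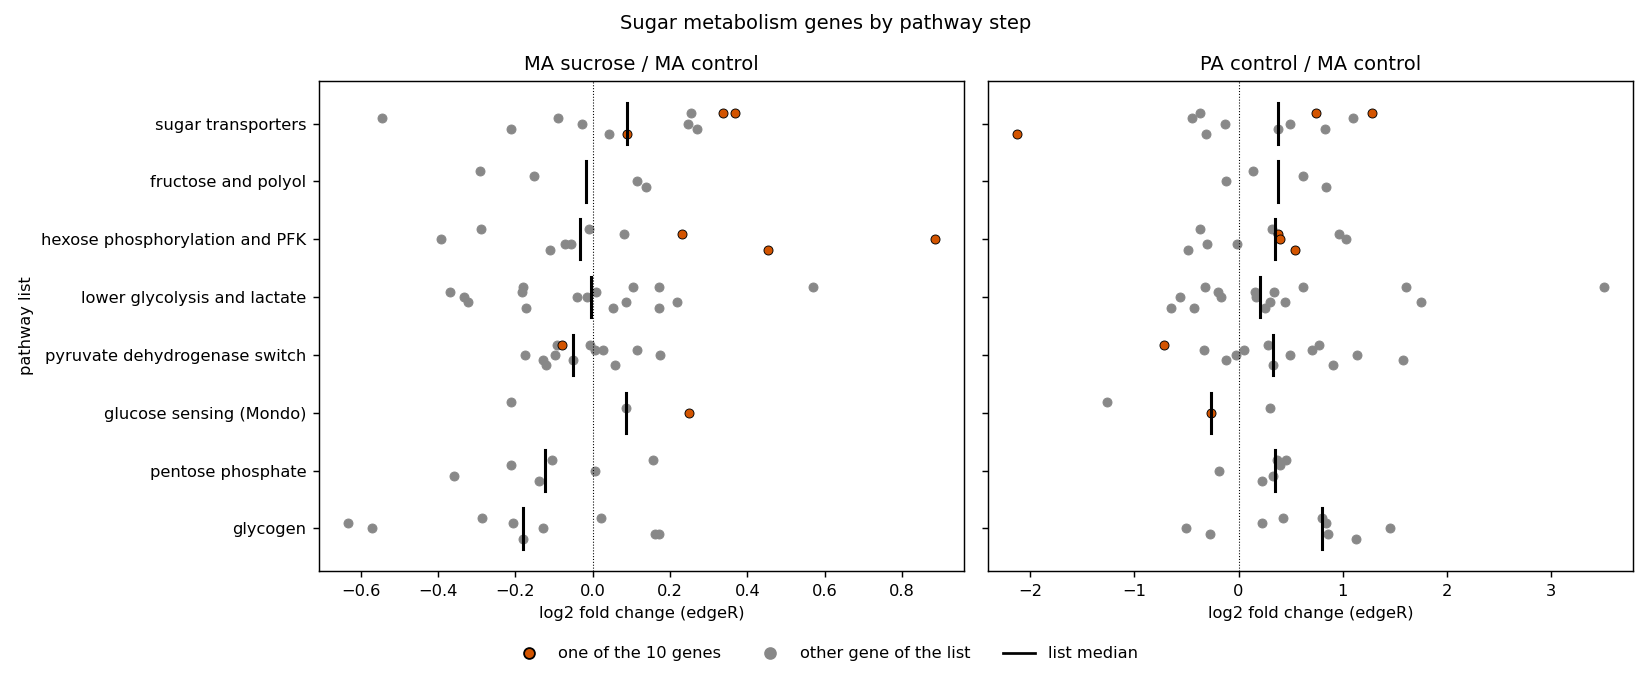
Log2 fold change by edgeR of each tested gene of the 8 pathway lists, for mesenteric sucrose over mesenteric control (left) and pulmonary control over mesenteric control (right, on a wider axis), with the 10 genes of the set in orange where tested and a bar at each list's median. In the sucrose comparison the values lie between −0.63 and 0.88, and in the pulmonary comparison between −2.12 (Slc2a3) and 3.51 (Pgam2).

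Likeness of pattern was described by Pearson's r of log2 CPM over the 9 libraries, among 11226 named genes with a mean of at least 1 on that scale. All genes share the libraries, their scaling and the difference between the arteries, so high values of r are frequent and carry no test. Slc2a3 was most like Hoxc6 (r = 0.98), a positional transcription factor, Gadd45a (0.98) and Rasa2 (0.97), and Slc2a1 most like Mogs, Tcf20 and Polr2a (0.97 to 0.98). Among the genes most like Slc2a4 were Myom1, a protein of the sarcomere (0.96), and Sspn (0.96). Txnip was most like Rnf103, Usp53 and Pde8a (0.97 to 0.99), and Pdk4 like Zc3h12c (0.98), Pnpla8, a phospholipase (0.97), and the fat hormone Lep (0.97). Hk1 (Irgq, Nucb1, Eif4g1), Hk2 (Cyb5b, Npc1, Myh9) and Pfkfb3 (Spred2, Nid2, Osbpl11) reached 0.88 to 0.95, and the sparse genes Slc2a5 (Chst1, Daglb, Nars2) and Khk (Dusp4, Tmem120a, Gsto2) 0.89 to 0.95.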

How the data were processed

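Gene counts came from poly(A) RNA of 9 artery libraries, 3 per group. The authors deposited whole-number counts per gene with no normalization, per the files' values, and named the build rn7, per the submitters' processing notes. Neither labels nor files name aligner, counter, annotation or strand setting (not given in the sources used here), so reads shared with gene copies or antisense transcripts are not separable. Per the labels' protocols, mRNA was enriched with oligo(dT) beads. The main test was edgeR's quasi-likelihood F test (version 4.0.16, R 4.3.3) with TMM factors, filterByExpr and robust dispersion, on the 6 libraries of each comparison, with Benjamini-Hochberg adjustment over all genes tested and a threshold of 0.05. The absolute log2 fold change over the root of F gave its SE. CPM use TMM-scaled totals over all 9 libraries, and log2 CPM a prior count of 2. Alternatives were median-ratio and upper quartile factors, DESeq2 1.42.0, limma-voom (limma 3.58.1), no filter, a stricter filter (a minimum of 10 counts throughout either group, mean at least 1 CPM), a joint fit of the 9 libraries, a replicate block, each library left out and pulmonary replicate 1 alone. The code was tested on simulated data. Named are the 10 genes, up to 2 genes with the smallest p from each pathway list and comparison, and the 3 genes most like each, of which 1 is not reported here. A few further genes (Acta2, Pecam1 and Adipoq) were named as checks of the tissue. Members, lists and rules were chosen with earlier results of these data known. Pairs of libraries of a group differed by a chi-square per degree of freedom of 42.5 to 312, above sampling noise, so none was treated as a library deposited a second time. This does not show that they came from separate animals.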

Additional observations from a re-analysis of the deposited data

How the results depend on the processing

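With 3 libraries per group, edgeR called few genes, and counts of calls moved with the tool. Between sucrose and control, 0 genes passed by edgeR and 3 by DESeq2, and every other alternative gave 0, the replicate block included. Between pulmonary and mesenteric control, 2 genes passed by edgeR, 408 by DESeq2, 33 by limma-voom, 38 with all 9 libraries in 1 fit, 36 with the replicate block and 0 with pulmonary replicate 1 alone, and from 0 to 22 with 1 library left out. The members called there were 0, or 1 (Slc2a3) by DESeq2, limma-voom, the block and, with 1 library left out, 0 to 1. The other pathway genes called were 0, or 2 of 64 tested (Pdp2 and Pgam2) by DESeq2, which called 2.85% of all genes. The labels do not tell whether a shared replicate number marks the same animal or litter, and the main test did not pair libraries. Deviations of same-numbered libraries correlated at 0.21, −0.29 and 0.13 between the mesenteric groups and at 0.17 and −0.17 between pulmonary and mesenteric control. Differently numbered libraries of the mesenteric groups correlated from −0.46 to 0.31. Such values, from 3 libraries per group, cannot decide whether samples were paired.

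Of the recomputed fold changes, 216 kept their sign and side of the threshold, 4 passed (all Slc2a3) and 12 changed sign, none of a gene that had passed. With 1 library left out, sucrose over control ran from −0.039 to 0.19 for Slc2a3, −0.21 to 0.74 for Slc2a4, −0.25 to 0.93 for Pfkfb3 and −0.56 to 0.31 for Pdk4. Pulmonary over mesenteric control then ran from −0.19 to 1.24 for Slc2a4, −0.058 to 0.59 for Hk1 and −0.65 to 0.18 for Txnip. With pulmonary replicate 1 alone the sign changed for Hk1 (−0.15), Hk2 (−0.26) and Txnip (0.035), and limma-voom changed it for Txnip (0.14). The cause was not tested beyond the library left out. Totals without mitochondrial genes moved 3 mean levels by more than 1 SD and left 57 within it, raw totals as library size included. Depth limits Slc2a5 and Khk, at 18 counts or fewer per library.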
